A study of Mus musculus with 4 samples.

Results

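Matrix proteases and their TIMP inhibitors were examined in spatial transcriptomes of tibial muscle from Nse-Bmp4 mice, through 10 genes chosen by symbol. They were the matrix metalloproteinases (MMPs) Mmp2, Mmp3, Mmp13, Mmp14 and Mmp19, the proteases Adamts1 and Adamts4, and the inhibitors Timp1, Timp2 and Timp3. All 10 were found among the 32285 features of the count tables, each as 1 feature. The mice were C57BL/6, 6 to 8 weeks old, and carried Bmp4, a bone-inducing growth factor, under the promoter of neuron-specific enolase (Nse). Cartilage and bone form in their muscle after injury. The muscle was uninjured (day 0) or was taken 1, 3 or 7 days after cardiotoxin, a snake venom toxin that destroys myofibres. Every group carried the transgene, so the uninjured section is the only control and injured mice without the transgene were not analysed here. The labels say that 3 muscles were mixed for a group, and each day had 1 section.

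MMPs are zinc-dependent enzymes that are made as inactive precursors and cut collagens, proteoglycans and other parts of the extracellular matrix. Mmp14 is anchored in the cell membrane, where it cuts fibrillar collagen and, with Timp2 as a bridge, activates the secreted gelatinase Mmp2. Mmp13 is a collagenase known from bone and hypertrophic cartilage, Mmp3 (stromelysin) cuts many matrix proteins and activates other MMPs, and Mmp19 is a secreted MMP that cuts several matrix proteins. Adamts1 and Adamts4 cut large proteoglycans such as versican and aggrecan. The TIMPs block the active site of these enzymes, and Timp3, which binds to the matrix, is the main TIMP that also inhibits the aggrecanases.

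A spot of the array covers several cells, and UMIs (unique molecular identifiers, each standing for 1 captured RNA molecule) were added up for each section and scaled to 1000000 UMIs (CPM). With 1 section per day there was no spread between animals and no test. Intervals are 95% intervals of counting error only, and every difference below is one between single sections. Fewer cells of a type and less RNA per cell cannot be told apart in such sums. The sections held 2107 to 3032 spots and 16777832 to 56113066 UMIs. Day 1 was the shallowest, with a median of 6322 UMIs per spot against 21029 on day 0. Muscle was present throughout: 9 of 9 adult myofibre markers had UMIs in each section, at a summed 211981 CPM on day 0, 107378 on day 1, 67906 on day 3 and 125248 on day 7.

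The promoters of Mmp3 and Mmp13 are shown because their windows, alone among those searched, held the AP-1 letters. Both genes also had higher levels in all 3 injured sections than on day 0, though Mmp13 on day 1 rests on 10 UMIs against 5. A window of 300 bases around the start site was found in RefSeq's table (GRCm38.p6) for 7 of the 10 genes. Both strands were searched for AP-1 letters, written TGANTCA. The search was repeated for the letters TGTGGT, which the RUNX factors bind, and for the TATA box, taken as TATAAA. No match of one motif overlapped a match of another. Timp1, with the largest ratio to day 0 on day 1, is shown as the contrast in letters. It too was higher in all 3 injured sections, and a link between letters and levels was not tested. The 100 bases before the start site are printed on the strand of the gene, with AP-1 and TATA box letters in capitals.
Mmp3, chr9:7445722-7445821, plus strand: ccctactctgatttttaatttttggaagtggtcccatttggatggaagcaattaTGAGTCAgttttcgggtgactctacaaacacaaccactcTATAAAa
Mmp13, chr9:7272414-7272513, plus strand: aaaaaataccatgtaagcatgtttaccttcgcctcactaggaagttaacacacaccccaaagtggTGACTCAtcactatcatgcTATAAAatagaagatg
Timp1, chrX:20870066-20870165, plus strand: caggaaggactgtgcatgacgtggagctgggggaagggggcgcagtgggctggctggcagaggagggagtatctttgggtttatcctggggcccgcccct

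The AP-1 match began at position -46 in Mmp3 and at -35 in Mmp13, counted from the start site. Of all 32851 promoter windows of this length, 7.81% held those letters. TATA box letters were found in 13.6% of all windows and in those of Mmp3, Mmp13 and Adamts1. RUNX letters were found in 16.8% of all windows and in those of Mmp13 and Mmp14. Timp1, Timp2 and Timp3 had no match to any of the 3 motifs in these windows. A match describes the letters and not a bound site. Mmp3 and Mmp13 lie near each other on chromosome 9, in the same build at 7445822 to 7455975 and 7272514 to 7283333.

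**Figure D1:**
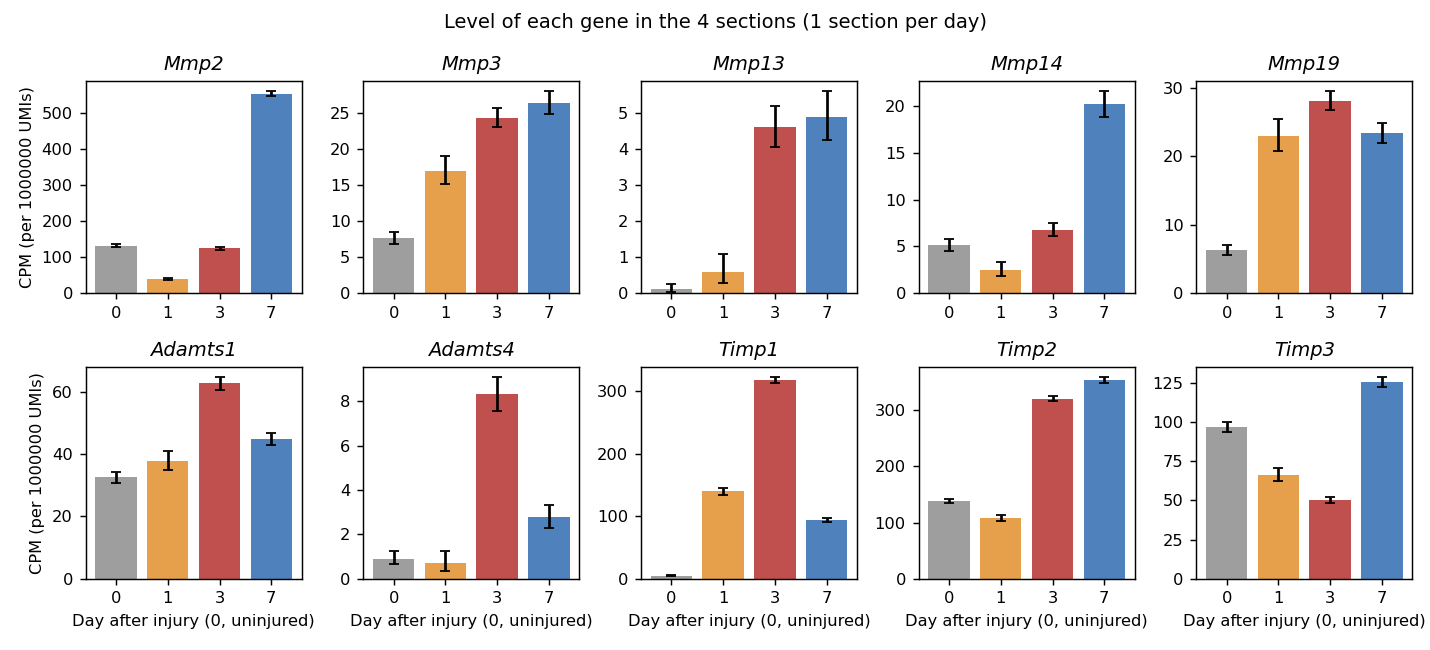
Level of each of the 10 genes in the 4 sections, as CPM (vertical axis, starting at 0 and scaled separately for each gene) by day after injury (horizontal axis). Bars are single sections and error bars are 95% Poisson intervals. Mmp2 and Mmp14 dip on day 1 and are highest on day 7, Timp1, Adamts1 and Adamts4 are highest on day 3, and Timp3 is lowest on day 3.

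The secreted gelatinase and its activator were both lowest on day 1 and highest on day 7. Mmp2 had 132 CPM on day 0, 38.4 on day 1, 124 on day 3 and 553 on day 7. It was lower by 3.43-fold on day 1 (ratio 0.291, interval 0.268 to 0.316), close to its uninjured level on day 3 (ratio 0.938, 0.906 to 0.972) and higher by 4.19-fold on day 7 (4.07 to 4.31). Mmp14 had 5.13 CPM on day 0, 2.50 on day 1, 6.81 on day 3 and 20.2 on day 7. Day 3 lay slightly below day 0 for Mmp2 and above it for Mmp14. The day 1 value of Mmp14 rests on 42 UMIs, with a ratio to day 0 of 0.488 (0.342 to 0.681). On day 7 the ratio was 3.94 (3.400 to 4.59). Between day 3 and day 7 Mmp2 differed by 4.46-fold (4.35 to 4.59) and Mmp14 by 2.97-fold (2.63 to 3.36).

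Mmp3 and Mmp19 had their largest step on day 1 and stayed high. Mmp3 had 7.66 CPM on day 0, 17.0 on day 1, 24.3 on day 3 and 26.4 on day 7. Its ratio to day 0 was 2.22 (1.89 to 2.60) on day 1 and 3.45 (3.05 to 3.91) on day 7. Mmp19 had 6.25, 23.0, 28.1 and 23.4 CPM, in the order of the days. All 3 injured sections lay within 1.22-fold of each other for Mmp19, and its ratio to day 0 on day 3 was 4.50 (3.96 to 5.14).

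Mmp13 appeared from day 3. It had 5 UMIs in the whole day 0 section and 10 on day 1, against 259 on day 3 and 205 on day 7, which is 0.114, 0.596, 4.62 and 4.90 CPM. Its ratios to day 0 were 40.5 (17.1 to 126) on day 3 and 43.0 (18.1 to 134) on day 7, with wide intervals set by the 5 uninjured UMIs. Days 3 and 7 were not told apart for this gene (ratio 1.06, 0.880 to 1.28).

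The 2 ADAMTS proteases were highest on day 3. Adamts1 had 32.5, 37.7, 62.6 and 44.7 CPM over the 4 days, and its ratio to day 0 on day 3 was 1.93 (1.81 to 2.05). Adamts4 had 0.912 CPM on day 0, 0.715 on day 1, 8.32 on day 3 and 2.77 on day 7. The day 3 section thus held 9.13 times (6.60 to 12.9) the uninjured level of Adamts4, and day 7 fell back to 0.333 (0.269 to 0.409) of the day 3 level. With 12 UMIs on day 1, Adamts4 was not told apart from day 0 (ratio 0.784, 0.375 to 1.53). Taken as the mean share per spot, its day 1 log2 ratio turned from -0.35 to 1.36, past 2-fold higher.

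Among the inhibitors, Timp1 changed most. It had 5.04 CPM on day 0, 140 on day 1, 318 on day 3 and 94.2 on day 7. The ratios to day 0 were 27.7 (24.1 to 32.0), 63.1 (55.3 to 72.4) and 18.7 (16.3 to 21.5). Timp2 had 138, 108, 320 and 353 CPM, so it was somewhat lower on day 1 (ratio 0.781, 0.741 to 0.823) and higher on day 7 (2.56, 2.49 to 2.64). Timp3 differed from Timp2 on day 3, with 96.7 CPM on day 0, 66.3 on day 1, 50.04 on day 3 and 125.4 on day 7. Its day 3 level was 0.517 (0.493 to 0.543) of the uninjured one, and day 7 was 2.51 times (2.39 to 2.62) day 3. The 3 inhibitors therefore had separate courses, with Timp1 highest on day 3, Timp2 level between days 3 and 7 within 1.10-fold, and Timp3 lowest on day 3.

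**Figure D2:**
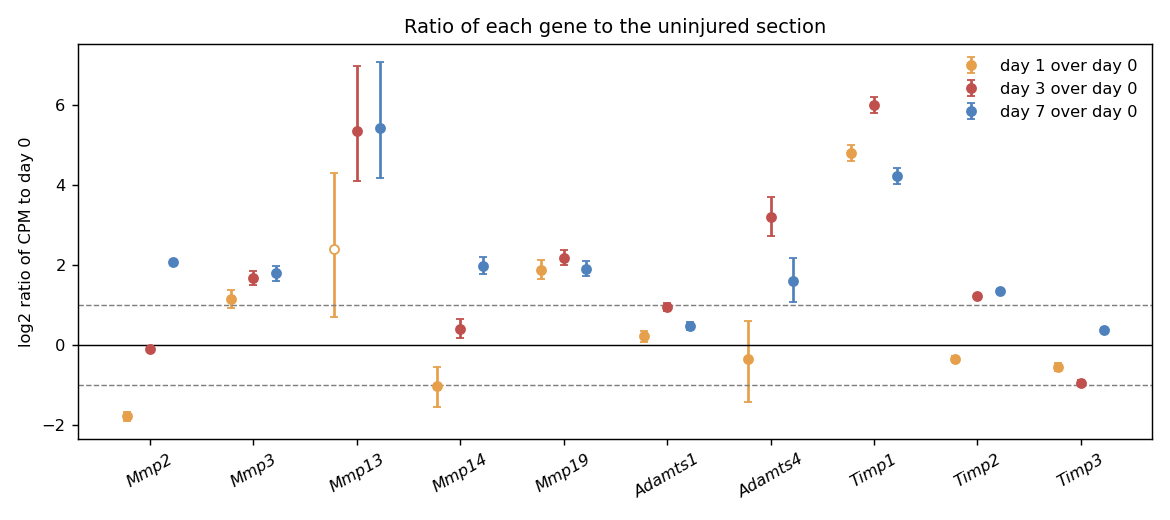
Ratio of CPM to the uninjured section for each gene (horizontal axis) on a log2 scale (vertical axis), in orange for day 1, red for day 3 and blue for day 7, with 95% counting intervals. Dashed lines mark 2-fold. The open point is Mmp13 on day 1, which was under 50 UMIs over both sections. All 3 comparisons share the day 0 section.

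A feature was called where its ratio to day 0 was at least 2-fold in either direction and the 2 sections together held at least 50 UMIs. On day 1, 9 of the 10 genes reached that minimum and Mmp13 did not. Of them, 3 were called higher (Mmp3, Mmp19, Timp1) against 15.8% of 12709 features tested, and 2 were called lower (Mmp2, Mmp14) against 10.4%. On day 3 all 10 reached the minimum, but Mmp13 (5 UMIs on day 0) and Adamts4 (40 UMIs) did so through the injured section, on day 7 as well. Of these, 6 were called higher (Mmp3, Mmp13, Mmp19, Adamts4, Timp1, Timp2) against 31.9% of 13879 features, and 0 lower against 6.77%. On day 7, 8 were called higher, all but Adamts1 and Timp3, against 29.3% of 13748 features, and 0 lower against 1.42%. The median log2 ratio of the genes that reached the minimum was -0.35, 1.44 and 1.85 in the 3 sections, beside 0.16, 0.57 and 0.63 over all features tested. The scaling bears on these values. TMM factors moved every log2 ratio by -0.21 on day 1, -0.55 on day 3 and -0.61 on day 7. Under them Mmp14 on day 3 (log2 ratio -0.14 against 0.41), Adamts1 on day 7 (-0.14 against 0.46) and Timp3 on day 7 (-0.23 against 0.37) turned below day 0, and Timp2 was no longer past 2-fold on day 3 (0.67) or day 7 (0.75). Mmp3 on day 1 (0.94) and Adamts4 on day 7 (1.00, just short of 2-fold) lost their calls too, and Timp3 on day 3 gained one as lower (-1.50). Over all features the same factors gave 1495 higher and 1781 lower on day 1, 2598 and 2025 on day 3, and 1724 and 740 on day 7, in place of 2002 and 1326, 4424 and 939, and 4029 and 195.

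The ratio of TIMP to MMP molecules within a section does not depend on the scaling. It was 1.59 TIMP UMIs per MMP UMI on day 0 (1.54 to 1.63), 3.85 on day 1 (3.62 to 4.09), 3.67 on day 3 (3.59 to 3.75) and 0.913 on day 7 (0.897 to 0.929). Capture differs between transcripts, so the change between sections can be read and the absolute ratio cannot. The 2 early injured sections thus held more inhibitor RNA per protease RNA than uninjured muscle, and the day 7 section held less. Timp1 made up 2.10% of the TIMP UMIs on day 0, 44.5% on day 1, 46.2% on day 3 and 16.4% on day 7. Mmp2 made up 87.3% of the MMP UMIs on day 0, 47.1% on day 1, 66.0% on day 3 and 88.1% on day 7. With Timp4 and all other measured MMPs added, the ratios were 1.35, 2.62, 2.70 and 0.751.

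**Figure D3:**
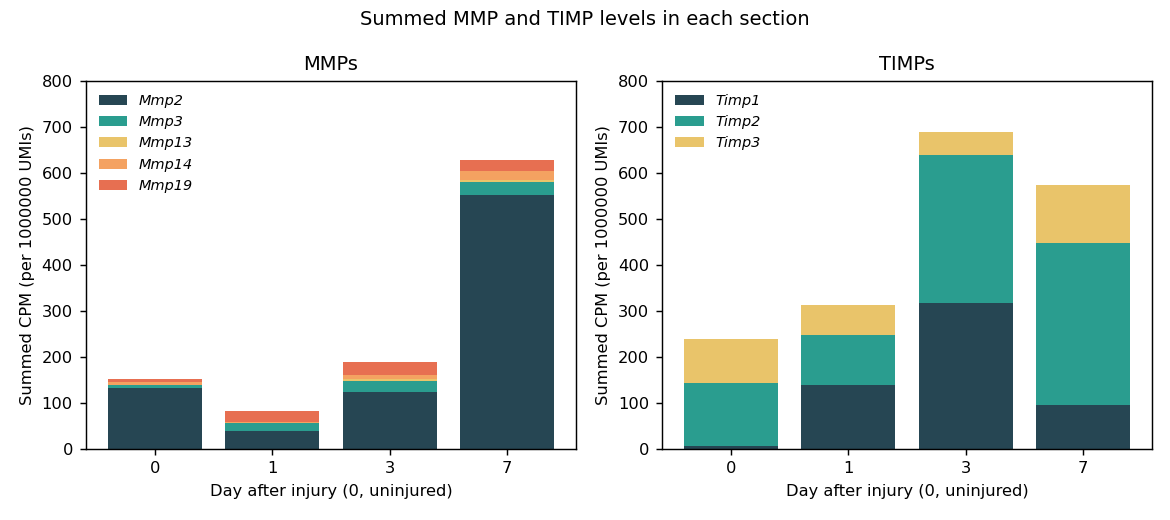
Summed CPM of the 5 MMPs (left) and the 3 TIMPs (right) in each section, on axes of the same range, by day after injury. Colours divide each bar by gene. The TIMP sum is above the MMP sum on days 0, 1 and 3 and below it on day 7, where Mmp2 makes up 88.1% of the MMP UMIs.

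Other genes of the pathway were counted from lists. Of 17 other MMPs among the features, 6 reached the minimum on day 1, with 2 higher and 2 lower (15.8% and 10.4% over all features). On day 3, 9 reached it, with 4 higher and 1 lower (31.9% and 6.77%), and on day 7, 9, with 6 higher and 0 lower (29.3% and 1.42%). On each of days 3 and 7, 3 of those called higher had under 50 UMIs on day 0 and reached the minimum through the injured section, as 1 did on day 1. Mmp8, the collagenase of neutrophils, had 0.0912 CPM on day 0, 3.28 on day 1, 2.48 on day 3 and 0.0956 on day 7. The neutrophil list moved with it, from 1.46 CPM on day 0 to 158 on day 1, 53.1 on day 3 and 7.77 on day 7, and its part in that result was not tested. Mmp12, the elastase of macrophages, had 0 UMIs on day 0, with an upper interval end of 0.0841 CPM, and 1.07, 6.91 and 8.70 CPM in the injured sections. Mmp9, the other gelatinase, had 4.83, 18.4, 3.67 and 11.9 CPM, a course unlike that of Mmp2. Mmp11 and Mmp23 were highest on day 7, at 18.1 and 92.9 CPM against 1.98 and 14.4 on day 0.

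Of 17 other ADAMTS genes, 12 reached the minimum on day 1 and 7 of them were lower (10.4% over all features) and 0 higher (15.8%). On day 3, 13 reached it, with 1 higher (31.9%) and 5 lower (6.77%), and on day 7, 13, with 5 higher (29.3%) and 0 lower (1.42%). The 1 called higher on day 3 and 1 of the 5 on day 7 had under 50 UMIs on day 0. Adamts5, the other main aggrecanase, had 19.3, 11.3, 32.0 and 30.8 CPM and was within 2-fold of day 0 in each section. Adamts16 had 1.25 CPM on day 0, 0.119 on day 1, 0.232 on day 3 and 7.12 on day 7. Among the other inhibitors, Timp4 was lowest on day 3, as Timp3 was, with 44.4, 23.6, 3.39 and 22.8 CPM. Reck, a membrane-anchored MMP inhibitor, had 7.27, 2.15, 2.55 and 12.9 CPM. Plaur, the receptor of urokinase, had 1.57, 16.9, 31.9 and 9.82 CPM and, like Timp1, was highest on day 3.

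Of 9 matrix substrates, 6 reached the minimum on day 1, with 4 lower (10.4% over all features) and 0 higher (15.8%). On day 3, 6 reached it, with 2 higher (31.9%) and 0 lower (6.77%). On day 7 all 9 reached it, with 7 higher (29.3%) and 0 lower (1.42%). Col2a1, Col10a1 and Acan, with 13, 0 and 2 UMIs on day 0, reached the minimum only through the day 7 section, so their call as higher was fixed by that filter. Col1a1, a chain of the collagen of tendon and bone, had 2253 CPM on day 0, 214 on day 1, 1309 on day 3 and 10600 on day 7. Acan, the cartilage proteoglycan cut by Adamts4, was at 0.0456, 0.238, 0.107 and 292 CPM. Adamts4 was thus highest in the day 3 section, where Acan had 6 UMIs.

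Spots were thinned to 2000 UMIs each, so that sections of unequal depth could be compared, and the share of spots with a UMI was counted. Mmp2 was found in 22.4% of spots on day 0, 6.43% on day 1, 19.0% on day 3 and 49.8% on day 7. Timp1 was found in 0.794%, 22.1%, 38.9% and 14.7%. Timp2 was found in 23.2%, 19.3%, 41.6% and 41.6%. For these 3 genes the share of spots followed the order of the levels, apart from Timp2 on days 3 and 7, which tied. Without thinning, Timp1 was found in 156 of 2107 spots on day 0 and in 2623 of 3029 on day 3, with 187 UMIs in a single spot. Mmp3 was found in 1.59% of thinned spots on day 0 and 6.29% on day 7, Mmp19 in 1.36% and 4.48%, Mmp14 in 1.201% and 3.90%, Adamts1 in 5.98% and 9.62%, and Timp3 in 17.4% and 22.8%. Mmp13 and Adamts4 were found in at most 0.848% and 1.59% of thinned spots in any section. Some genes were patchy across spots. The variance of the thinned counts over their mean, which is near 1 for an even spread, was 1.83 for Mmp2 on day 7, 1.51 for Timp1 on day 3 and 1.42 for Mmp3 on day 3, against 1.02 for Adamts4 on day 3. Mmp13 on day 7, a rare gene, had 1.51. This measure rises with the count, so abundant and rare genes cannot be ranked by it. For Mmp2 on day 7 it was 1.41 with thinning to 1000 UMIs and 2.73 with thinning to 4000.

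Where in the section the RNA lay was read from marker lists. For each list, the tenth of spots with the highest share of its UMIs was set against the other spots of the same section, among spots of at least 2000 UMIs. These spots are called rich in the list and are mixtures, not cell types. Spots are not replicates, and the intervals cover counting error only. For no list was the count of genes above or below 1 made over all features. The counts below therefore cannot set these genes apart from other genes.

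In the uninjured section the genes were higher in spots rich in vessel wall or fat markers and lower in spots rich in adult myofibre markers. Of 8 genes with at least 50 UMIs, 7 had an interval above 1 in the spots rich in the smooth muscle and pericyte list, and 6 had one below 1 in adult myofibre-rich spots. These 2 sets shared 3 of 209 spots, and the part of myofibre RNA in the ratios was not tested. Mmp3 had 25.4 CPM in adipocyte-rich spots against 6.03 in the others, a ratio of 4.20 (3.28 to 5.36). Timp3 had 183 CPM in smooth muscle- and pericyte-rich spots against 87.2, a ratio of 2.10 (1.94 to 2.27), and Adamts1 had a ratio of 2.23 (1.95 to 2.54) there.

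On day 1, all 7 genes with enough UMIs were higher in spots rich in the MSC list (mesenchymal stromal cell genes such as Pdgfra and Prrx1), with ratios of 1.79 to 3.79. The same held for adipocyte-rich spots, with ratios of 1.58 to 3.23, and the 2 sets shared 95 of 215 spots (44.2%). The MSC-rich spots shared 1 of 215 with the adult myofibre-rich ones, and the part of myofibre RNA in these ratios was not tested. In MSC-rich spots Mmp3 had the 3.79 (2.79 to 5.10), with 49.6 CPM against 13.1. In spots rich in monocyte/macrophage markers Mmp19 had 64.1 CPM against 17.7, a ratio of 3.63 (2.79 to 4.68). Mmp3 had no such difference there (0.965, 0.571 to 1.54), nor did Timp3 (0.986, 0.775 to 1.24). The MSC-rich spots were shallower, with a median of 4398 UMIs against 7716.

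On day 3 the genes differed in where they were high. In monocyte/macrophage-rich spots 4 of the 10 genes had intervals above 1 and 3 below. In adult myofibre-rich spots 2 had intervals above 1 and 7 below, so most were lower there. In monocyte/macrophage-rich spots Timp2 had 499 CPM against 287 (ratio 1.74, 1.68 to 1.80), Mmp19 had a ratio of 1.66 (1.48 to 1.87) and Mmp13 one of 2.40 (1.82 to 3.15). In the same spots Mmp3 had 4.43 CPM against 28.0, a ratio of 0.158 (0.112 to 0.218). Timp3 (0.321, 0.271 to 0.377) and Adamts1 (0.497, 0.440 to 0.560) were lower there as well, and Timp1 was level (1.00, 0.964 to 1.05). Both genes with intervals above 1 in adult myofibre-rich spots were among those low in macrophage-rich ones: Timp3, at 107 CPM against 46.9 (2.29, 2.03 to 2.58), and Mmp3 (1.61, 1.31 to 1.95). Adamts1 was lower in both (0.820, 0.692 to 0.965 in myofibre-rich spots). Timp1 had 85.6 CPM there against 331, a ratio of 0.259 (0.227 to 0.293). Median depth moved with both lists, at 28702 UMIs against 14982.5 for macrophage-rich spots and 9048.5 against 17321 for myofibre-rich spots, and its part in these ratios was not tested. Mmp3 (2.99, 2.61 to 3.42) and Adamts1 (2.04, 1.85 to 2.24) were also higher in adipocyte-rich spots.

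Spots rich in regenerating muscle genes such as Myh3 and Myog, on day 3, had low Mmp3 (ratio 0.248, 0.189 to 0.321) and low Timp3 (0.436, 0.377 to 0.501). Mmp2 was higher in them (1.43, 1.35 to 1.52), and so was Adamts4 (1.41, 1.12 to 1.76).

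**Figure D4:**
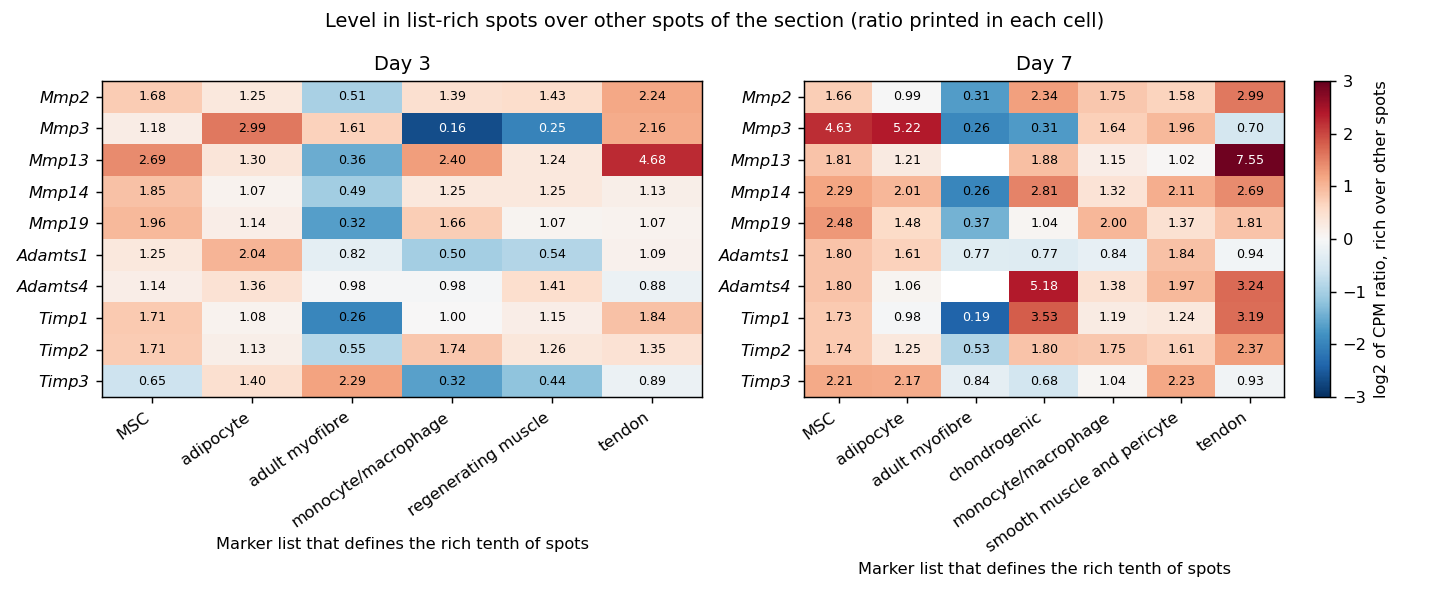
Level of each gene (rows) in the tenth of spots richest in a marker list (columns) over its level in the other spots of the same section, on day 3 (left) and day 7 (right). Colour gives the log2 of the ratio of CPM and the ratio is printed in each cell. Blank cells had 3 UMIs or fewer in 1 of the 2 sets of spots. Mmp13 and Mmp2 are highest in the tendon column on day 7, while Mmp3 is highest in the adipocyte column on both days.

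On day 7 cartilage genes such as Col2a1 and Acan were present. The 13 genes of the chondrogenic list had a summed 2043 CPM, against 11.5 on day 0 and 23.7 on day 3. Spots rich in this list had more of 6 of the 10 genes and less of 3. Adamts4 had 10.2 CPM against 1.97 in the other spots, a ratio of 5.18 (3.46 to 7.67). Timp1 had 266 against 75.5 (3.53, 3.29 to 3.79), and Mmp14 had 47.8 against 17.1 (2.81, 2.38 to 3.30). Mmp2 had 1143 against 489 (2.34, 2.26 to 2.41). RNA of an aggrecanase, of the membrane-bound Mmp14 and of Timp1 was thus higher in the same spots. Mmp3 was scarce in them, with 8.74 CPM against 28.2 (0.310, 0.216 to 0.432), and Timp3 had a ratio of 0.684 (0.613 to 0.761). Of these 295 chondrogenic-rich spots, 235 were also rich in hypertrophic cartilage markers and 221 in osteogenic markers. For both of these lists some rich spots held under 3 UMIs of the list, so the overlap is a rough one.

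Tendon-rich spots shared 112 of their 295 spots with the chondrogenic-rich ones on day 7. Mmp13 had 20.6 CPM in tendon-rich spots against 2.73 in the others, a ratio of 7.55 (5.69 to 10.0). On day 3 the ratio was 4.68 (3.60 to 6.07), with 15.4 CPM against 3.29. To part tendon from cartilage, day 7 spots were split 4 ways, a split chosen after the values were seen. Mmp13 had 28.8 CPM (23.3 to 35.4) in the 183 spots rich in the tendon list alone, 6.83 (3.64 to 11.7) in the 112 rich in both, 9.92 (6.22 to 15.0) in the 183 rich in the chondrogenic list alone and 2.27 (1.79 to 2.83) in the 2470 rich in neither. The tendon-only spots were not free of cartilage RNA, with 1438 CPM of the chondrogenic list against 800 in the spots rich in neither. The high level there rests on few spots: without those that held at least 3 Mmp13 UMIs, the 4 levels were 11.5 CPM (8.00 to 16.0), 5.29 (2.54 to 9.74), 7.27 (4.15 to 11.8) and 2.10 (1.64 to 2.64), and the intervals of the 3 rich kinds overlap. Adamts4 had 5.64, 9.46, 10.8 and 1.63 CPM in the same order, with intervals of the first 3 that overlap. Mmp2 had 1208, 1535, 807 and 422 CPM, and so was highest where both lists were rich. Mmp3 had 27.0, 5.78, 11.3 and 28.3 CPM, low wherever the chondrogenic list was rich.

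**Figure D5:**
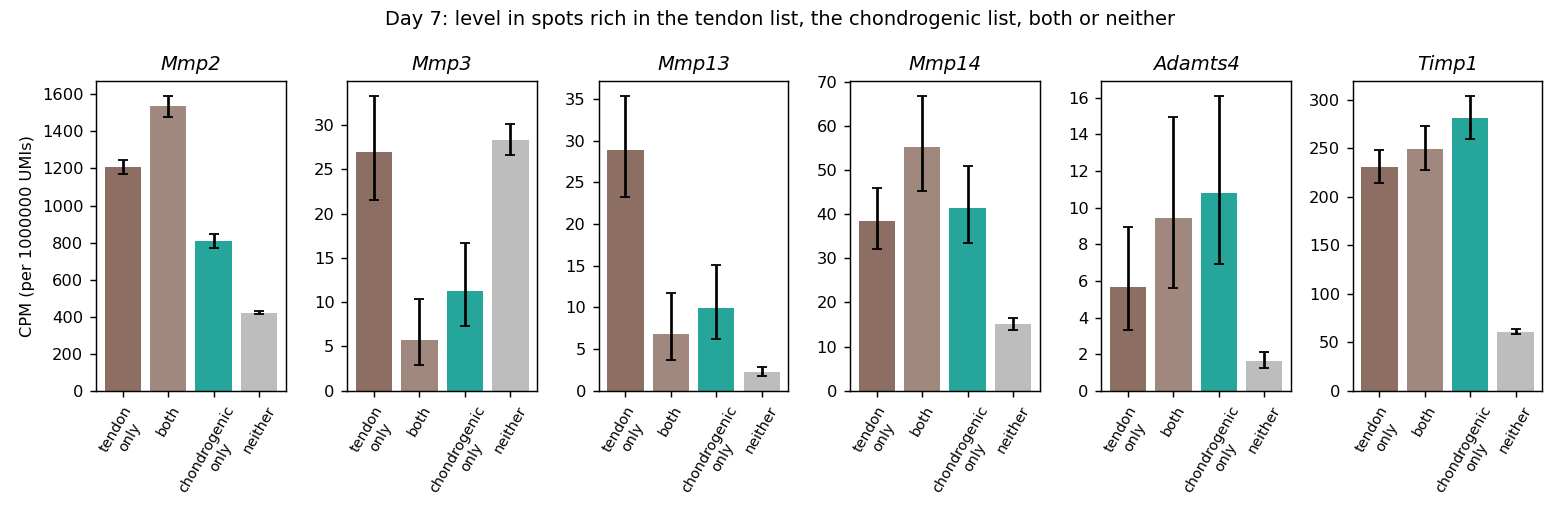
Level of 6 genes on day 7 (vertical axes, CPM, starting at 0 and scaled separately) in spots rich in the tendon list only, in both lists, in the chondrogenic list only and in neither. Error bars are 95% Poisson intervals. Mmp13 is highest in tendon-only spots (28.8 CPM, and 11.5 without 8 spots of at least 3 UMIs), Mmp3 is low in both kinds of chondrogenic-rich spots, and Timp1 is at 231 to 281 CPM in the 3 rich kinds against 61.1 in the rest.

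The Mmp13 RNA was gathered in few spots. On day 3, 175 of 3029 spots held all 259 UMIs, and 15 spots with at least 3 UMIs each held 81 of them. On day 7, 127 of 3032 spots held the 205 UMIs, and 13 spots held 72, with up to 14 in 1 spot. Those 13 spots had 4014 CPM of the tendon list against 637 in the spots without Mmp13, and the 15 spots of day 3 had 4309 against 665. The monocyte/macrophage list was also higher in them, at 3369 CPM against 1864 on day 7 and 13845 against 7142 on day 3, and osteoclast markers were at 297 against 156 CPM on day 7. Skeletal lists were higher in the 13 spots too, with osteogenic markers at 696 against 242 CPM, the chondrogenic list at 2915 against 1960 and hypertrophic cartilage markers at 450 against 293. On day 3 the chondrogenic list was at 68.1 against 22.8 CPM, on 37 UMIs, in a section with 5 UMIs of Col2a1 and 6 of Acan. Hypertrophic cartilage markers went the other way on day 3, at 7.36 CPM (2.01 to 18.8, on 4 UMIs) against 15.1. On day 7 the spots with 1 to 2 UMIs of Mmp13 had 3340 CPM of the chondrogenic list, 522 of the hypertrophic cartilage list and 652 of the osteogenic list. Spots with Mmp13 were deeper than spots with none. On day 7 the median was 18454 UMIs in spots with 1 to 2 and 14524 in those with at least 3, against 11887. On day 3 it was 24648.5 and 35146, against 15515. Adult myofibre markers were lower in the spots with at least 3, at 80853 against 127556 CPM on day 7 and 13972 against 71191.5 on day 3. The part of depth and of myofibre RNA in these counts was not tested. Without the spots that held at least 3 Mmp13 UMIs, the tendon ratio was 3.79 (2.58 to 5.48) on day 7 and 1.75 (1.14 to 2.61) on day 3.

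Fat and stroma were the other place of Mmp3. On day 7 it had 105 CPM in adipocyte-rich spots against 20.1, a ratio of 5.22 (4.57 to 5.96), and 91.0 against 19.7 in MSC-rich spots (4.63, 4.06 to 5.26). Timp3 was higher in the same places, with 2.17 (2.005 to 2.34) and 2.21 (2.06 to 2.37), and in smooth muscle- and pericyte-rich spots (2.23, 2.08 to 2.39). MSC-rich spots were not particular to these genes, since all 10 had intervals above 1 in them, from 1.66 upwards, with Mmp2 at 1.66, Timp1 at 1.73 and Adamts4 at 1.80. In adipocyte-rich spots 6 of the 10 did, and the ratios of Mmp2, Timp1 and Adamts4 were 0.994, 0.981 and 1.06, with intervals that include 1. The MSC-rich and adipocyte-rich sets shared 122 of 295 spots. In adult myofibre-rich spots on day 7 all 10 genes had intervals below 1, Mmp13 with a single UMI in those spots, and Timp1 had 18.9 CPM against 101 (0.188, 0.144 to 0.242). That list alone made up 125248 CPM of the section, and a high share of it lowers the CPM of other genes. Its part in these ratios was not tested, and the count over all features was not made.

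Enzyme, activator and bridge were then counted in the same spots. On day 7, Mmp2, Mmp14 and Timp2 were found together in 42 of 2948 thinned spots (1.43%), where the product of their separate shares gives 23.8 spots, a ratio of 1.77 (1.27 to 2.38). In the other sections the 3 were together in 2 spots on day 0, 0 on day 1 and 4 on day 3, too few to read. Mmp2 and Timp2 alone shared 24.4% of spots on day 7 (ratio to the product 1.18, 1.10 to 1.26) and 9.02% on day 3 (1.14, 1.01 to 1.28). On day 7 the ratio was 1.26 (0.959 to 1.61) for Mmp14 with Timp2 and 1.26 (0.986 to 1.58) for Mmp2 with Mmp14. Both intervals include 1, but they lay above 1 with thinning to 4000 UMIs and without thinning. Whether the 3 genes met more often than their pairs give was not tested. On day 1, Mmp19 and Timp1 shared 38 of 2154 spots (1.65, 1.16 to 2.24). Pairs of an enzyme and its substrate were counted as well. On day 7 Adamts1 and Vcan shared 32 spots (1.07, 0.721 to 1.48), with an interval that includes 1. Without thinning their ratio was 1.13 (1.04 to 1.22). Mmp14 and Col1a1 shared 115 spots (1.03, 0.851 to 1.23), and 571 without thinning (1.00, 0.927 to 1.08). Mmp14 itself was found in 115 thinned and 571 unthinned spots, nearly all of which thus held Col1a1. The ratio of this pair could not rise further, so it cannot show whether the 2 genes go together. Pairs with a cartilage gene depended on the depth of thinning. Adamts4 and Acan shared 8 spots on day 7 (2.08, 0.870 to 3.96), against 19 with thinning to 4000 UMIs (1.90, 1.15 to 2.98) and 95 without thinning (1.51, 1.23 to 1.84). Mmp13 and Col10a1, the collagen of hypertrophic cartilage, shared 1 spot, against 5 at 4000 UMIs (3.45, 1.14 to 8.20) and 30 without thinning (3.07, 2.08 to 4.38). Mmp13 and Col2a1 shared 12 (1.32, 0.657 to 2.21), 29 (1.34, 0.906 to 1.94) and 116 (1.25, 1.03 to 1.49). Without thinning, deep spots hold more of both genes, and the part of depth was not tested.

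Last, the features most alike were found by Spearman's rho across thinned spots, for a gene in sections where at least 20% of spots held it. This correlation is a description here, since spots share a library and a base of zeros. For Mmp2 on day 7 the 5 most alike of 1066 features were Col1a1 (rho 0.44), Col1a2 (0.44), Col3a1 (0.42), Sparc (0.42) and Postn (0.39), all genes of collagen matrix, over 2948 spots. On day 0 they were Col3a1, Col1a1, Gsn, Col1a2 and Sparc, with rho of at most 0.18. Timp2 changed company between days. On day 3 its 5 most alike were Ftl1 (0.25), Apoe (0.25), Lyz2 (0.24), Ctsb (0.24) and Tmsb4x (0.23). Of these, Lyz2 is in the monocyte/macrophage list. On day 7 they were Col3a1 (0.29), Sparc (0.28), Col1a2 (0.27), Col1a1 (0.27) and Bgn (0.26). Timp1 on day 3 was most alike to Col3a1 (0.21). Timp3 on day 7 had no feature above 0.10, the value for Gsn.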

How the data were processed

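Spatial RNA was measured on 4 sections, 1 per day. The deposited tables hold unnormalised UMI counts for each gene in each spot, made by the authors with Space Ranger, version 1.2.0 per the file headers. The methods of the study name another version of it, and the labels name a different program, Cell Ranger 5.0.0. The submitters' processing notes name build mm10. All 10835 spots were used, and spot positions and images were not used here.

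Counts were summed per section and scaled to CPM, with exact Poisson intervals and, for ratios, exact conditional binomial intervals (95%). A gene under 3 UMIs was entered at 3 for ratios. Counting intervals do not cover differences between animals, and UMIs mark molecules. For spots, 20 draws to 2000 UMIs were averaged (5 for rho). For ratios in rich spots, a marker list was used in a section only where each of its rich spots held at least 3 UMIs of it. Overlaps between sets of rich spots were counted without this rule. Ratios in rich spots are given for genes with at least 50 UMIs in that section.

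The 10 genes and all lists were chosen with earlier results of these data known. Named were these genes, genes of the lists and pairs, and, per gene and section with at least 20% of thinned spots, the 5 features with the highest rho. Pathway lists were other MMPs, other ADAMTS, other inhibitors, activators and cofactors, and matrix substrates. One gene of these lists is not reported here. Marker lists numbered 17: monocyte/macrophage, neutrophil, MSC, chondrogenic, hypertrophic cartilage, osteogenic, osteoclast, endothelial, smooth muscle and pericyte, adult myofibre, regenerating muscle, tendon, adipocyte, Schwann cell, T and NK cell, B cell and dendritic cell. Calculations ran in R 4.3.3, with edgeR 4.0.16 for TMM factors and DESeq2 1.42.0 for size factors, and in Python 3.11.15 with SciPy 1.17.1, NumPy 2.4.6, matplotlib 3.10.9 and pandas 2.3.3. The calculations were tested on simulated data.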

Additional observations from a re-analysis of the deposited data

How the results depend on the processing

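The settings tried in place of plain CPM were size factors (DESeq2), TMM factors (edgeR), a reduced total that leaves out adult myofibre, haemoglobin and mitochondrial genes, spots of at least 1000 UMIs, the mean share per spot, a minimum of 10 UMIs, no minimum, and 1.5-fold. Among the 10 genes, the count called lower at day 1 was 1 with the mean share per spot, in place of 2. The count called lower at day 3 was 1 in place of 0 with TMM factors, with size factors, with the reduced total and at 1.5-fold, each time Timp3. The counts called higher stayed within 1.5 times of 3, 6 and 8. With both sets of factors the calls of Mmp3 at day 1 and of Timp2 at days 3 and 7 were lost. With TMM factors that of Adamts4 on day 7 was lost as well. With the mean share per spot Adamts4 at day 1 turned from -0.35 to 1.36 (log2) and Mmp14 at day 1 lost its call (-0.80). TIMP UMIs per MMP UMI were 1.35, 2.62, 2.70 and 0.751 with all 4 TIMPs and all MMPs measured, in place of 1.59, 3.85, 3.67 and 0.913. The ratio for Mmp2, Mmp14 and Timp2 in 1 spot at day 7 was 1.26 without thinning, in place of 1.77. In adult myofibre-rich spots at day 3 the ratio of Adamts1 turned from 0.820 to 1.08 with the top 20% of spots and to 1.02 with the reduced total. In adipocyte-rich spots at day 3 that of Timp2 turned from 1.13 to 0.952 with the top 20%. With the top 20%, Mmp13 in tendon-rich spots at day 3 was at 2.77 in place of 4.68, and Mmp3 in chondrogenic-rich spots at day 7 at 0.506 in place of 0.310. Leaving out the spots with at least 3 Mmp13 UMIs, for which the values stand in the text above, was chosen after seeing the data. The cause of these shifts was not tested. No paired analysis was possible because each day had 1 section, and no section could be left out. Low counts limit the values of Mmp13 at days 0 and 1 and of Adamts4 at day 1, each with 12 UMIs or fewer.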
